A study of Mus musculus with 8 samples.

Results

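The genes described here are the ligands and receptors that steer growing axons. They were taken by symbol from the deposited tables and comprise the semaphorins with their plexin receptors, the ephrins with their Eph receptors, the Slits with their Robo receptors, and the netrins with their Unc5 receptors. The rule used names alone and matched 65 of the 29713 genes. RNA was sequenced from 8 mouse libraries, 1 in each group. Cerebellum, cortex and hippocampus were tissue of strain C57, and the libraries titled glia and neuron came from brain of the same strain. Mouse embryonic fibroblasts (MEF) were from day 13.5 embryos of strain ICR in one library and of strain OG2 in the other. The last library was labelled R1 ESC, which stands for embryonic stem cells; its strain is given as 129X1 x 129S1 and its source as inner cell mass. Apart from the embryos' day the labels give no age, and they state no treatment, sex or number of animals, nor how glia and neurons were isolated. With 1 library per group there is no replicate check, so no p-value is given and a difference is one between libraries.

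Guidance cues tell a growing axon where to turn, and the same molecules shape synapses and blood vessels in the mature brain. Semaphorins are secreted or membrane-bound ligands that act through plexins, for the secreted class with a neuropilin as co-receptor. Ephrins are held on the cell surface, by a lipid anchor in the A class and by a membrane-spanning segment in the B class, and bind Eph receptor tyrosine kinases on the neighbouring cell. Slits are secreted and repel axons that carry Robo receptors at the midline. Netrins attract axons through Dcc and repel them through Unc5 receptors. Many of these genes are also used outside the nervous system, for instance in boundaries between tissues and in the vessel wall.

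Levels are in TPM, a unit scaled to the same sum in every library, which counts reads per effective length of a transcript. Total expected counts were 2147004 for R1 ESC, the shallowest library, and 5864673 for glia, the deepest. A count of 0 on a gene of the members' median effective length (4010.4 bases) allows, at 3 counts, up to 0.230 TPM in OG2 MEF and up to 0.470 in hippocampus. The markers of the labelled types were mostly in place. All 6 neuron markers reached 10 TPM in the neuron library and in the brain regions, and all 6 astrocyte markers did so in glia. Neuron markers summed to 418 TPM in glia against 4542 in neuron: Rbfox3 was at 0 in glia and Snap25 and Syt1 under 1 TPM, but Stmn2 stood at 288, Map2 at 118 (122 in neuron) and Syp at 10.06 TPM. The summed level of the 6 oligodendrocyte markers was 4468 to 6006 TPM in the brain regions against 155 in glia and 34.2 in neuron. Glia also held oligodendrocyte precursor and microglia markers, at summed levels of 741 and 592 TPM against 10.2 and 48.6 in neuron. Of the 4 precursor markers Olig1 (631 TPM) and Olig2 (102 TPM) made up most of that sum, and Pdgfra and Cspg4 were at 1.27 and 5.92 TPM in glia. The sum of the 6 endothelial markers was 73.5 to 94.4 TPM in the regions, 7.35 in glia and 2.27 in neuron. In the library labelled R1 ESC the pluripotency genes Pou5f1 and Nanog stood at 20.2 and 10.3 TPM, while Zfp42, Esrrb and Dppa5a had 0. Sox2, the remaining marker of that list, stood at 4.8 TPM there, against 30.05 to 40.5 in the brain regions and 225 in glia. The label of the library is therefore only partly borne out. In tissue, fewer cells of a type and less RNA per cell cannot be told apart.

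Of the 65 members 58 reached 10 TPM in at least 1 library, and the other 7 did not. The number at 10 TPM or more was 45 in cortex and in hippocampus, 36 in cerebellum, 33 in glia, 23 in ICR MEF, 22 in neuron, 19 in OG2 MEF and 3 in the library labelled R1 ESC. Their summed level was largest in hippocampus (2087 TPM) and smallest in the library labelled R1 ESC (745 TPM). Plxnb2 alone was at 10 TPM or more in every library. Epha1 and Ntn5 lay just under that level in their highest libraries, at 8.38 and 8.33 TPM, and the lowest maximum above it was that of Robo3, at 14.2 TPM. The remaining members under 10 TPM everywhere were Efna1, Efna2, Robo4, Sema3d and Sema3g.

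**Figure D1:**
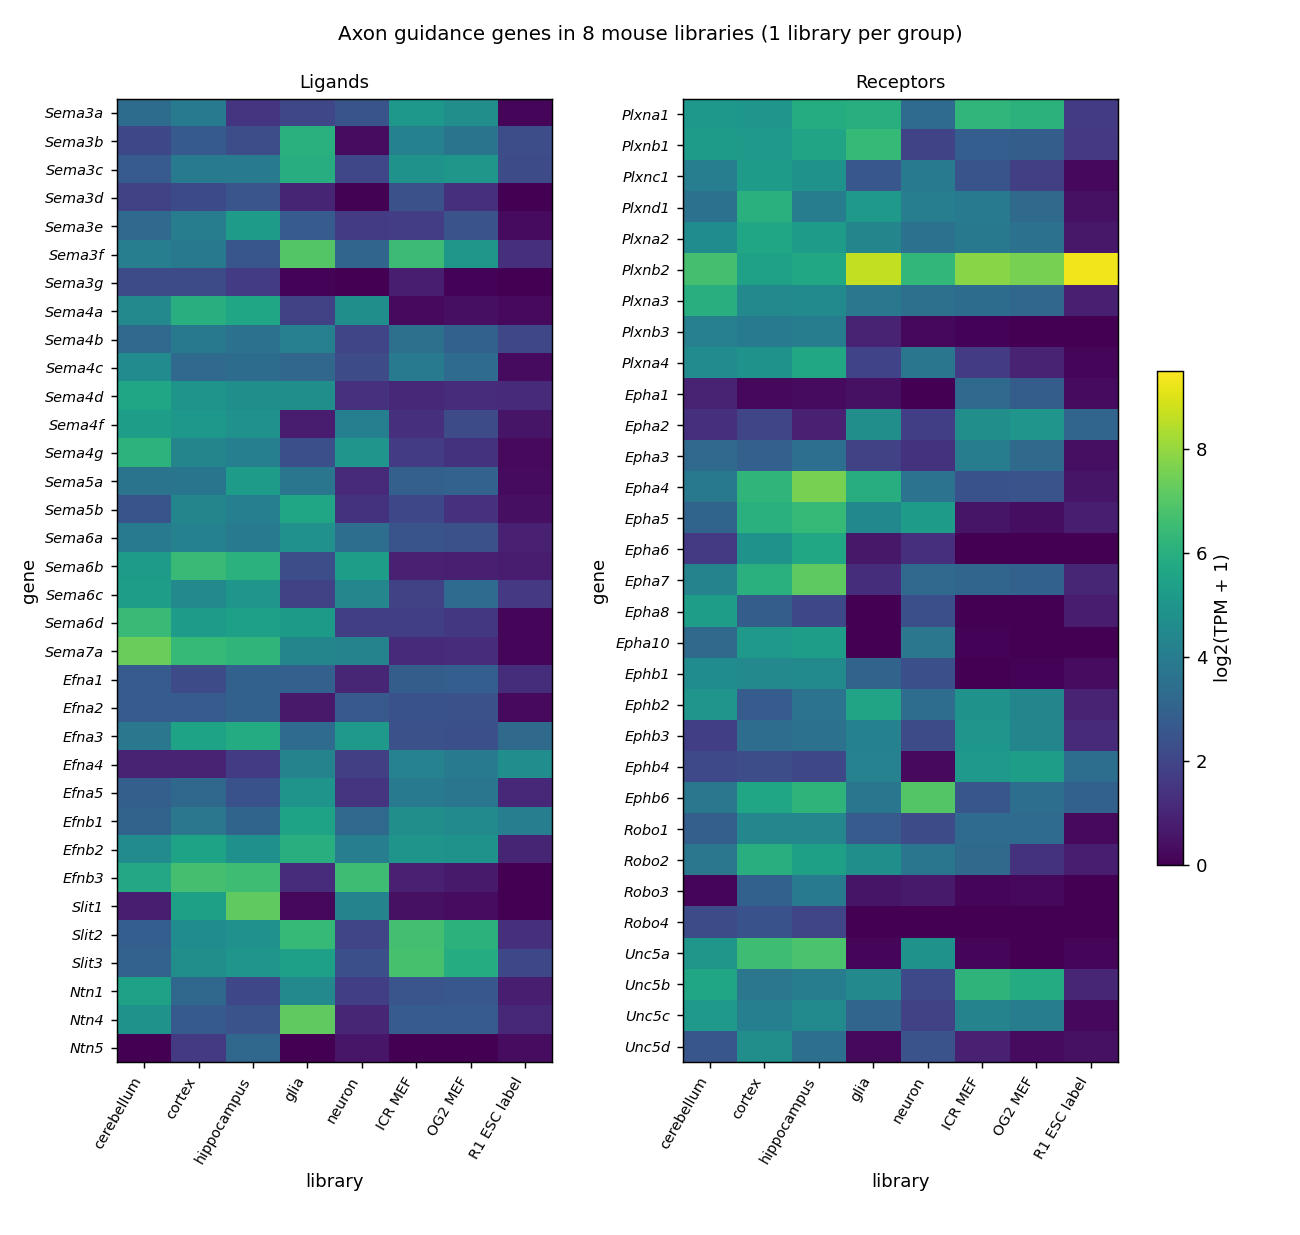
Level of each of the 65 genes, as log2(TPM + 1) in colour, in rows by family and with 1 library per column; ligands are on the left and receptors on the right. Unc5a, Efnb3, Slit1 and Sema4a are bright in the forebrain regions and neuron and dark in glia and MEF, Slit2, Slit3, Epha2 and Ephb4 are brightest in glia or MEF, and Plxnb2 is bright in all columns.

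Of the 20 semaphorins some were highest in neuronal tissue and others in glia or fibroblasts. Sema4a reached 21.4, 62.4 and 47.3 TPM in the cerebellum, cortex and hippocampus libraries, 2.58 in glia, 25.7 in neuron, 0.19 and 0.32 in ICR and OG2 MEF and 0.18 in the library labelled R1 ESC. Sema6b, a membrane-spanning semaphorin, had a similar order of libraries with higher levels. Sema6b was measured at 37.3 TPM in cerebellum, 82.8 in cortex, 66.6 in hippocampus, 3.87 in glia and 38.6 in neuron, with 0.81 in ICR MEF, 0.78 in OG2 MEF and 0.68 in the library labelled R1 ESC. In both genes the brain regions and neuron lay above glia, both MEF libraries and the library labelled R1 ESC without overlap. Sema4f and Sema4g, from the same membrane-bound class as Sema4a, were highest in cerebellum. Sema4f reached 39.2, 32.3 and 27.3 TPM in the cerebellum, cortex and hippocampus libraries, 0.69 in glia, 16.2 in neuron, 1.48 and 3.54 in ICR and OG2 MEF and 0.44 in the library labelled R1 ESC. Sema4g was measured at 69.1 TPM in cerebellum, 18.9 in cortex, 16.2 in hippocampus, 4.01 in glia and 29.7 in neuron, with 2.23 in ICR MEF, 1.64 in OG2 MEF and 0.17 in the library labelled R1 ESC. Both exceeded glia in neuron, as did Sema6c. Sema6c reached 38.01, 21.4 and 30.8 TPM in the cerebellum, cortex and hippocampus libraries, 2.61 in glia, 19.8 in neuron, 2.59 and 8.94 in ICR and OG2 MEF and 2.01 in the library labelled R1 ESC. Sema7a was measured at 166 TPM in cerebellum, 82.3 in cortex, 73.3 in hippocampus, 19.7 in glia and 17.96 in neuron, with 1.27 in ICR MEF, 1.28 in OG2 MEF and 0.11 in the library labelled R1 ESC. Sema7a, which is lipid-anchored and acts through plexin C1 and integrins, was highest in cerebellum and near 1 TPM in MEF.

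Secreted semaphorins showed another order. Sema3f reached 15.9, 13.4 and 4.87 TPM in the cerebellum, cortex and hippocampus libraries, 125 in glia, 7.58 in neuron, 91.3 and 31.4 in ICR and OG2 MEF and 1.51 in the library labelled R1 ESC. Sema3b was measured at 3.14 TPM in cerebellum, 5.5 in cortex, 3.71 in hippocampus, 63.7 in glia and 0.24 in neuron, with 17.2 in ICR MEF, 11.7 in OG2 MEF and 3.74 in the library labelled R1 ESC. Sema3b and Sema3f, neuropilin ligands that lie near each other on chromosome 9, were both highest in glia, next highest in ICR MEF and then in OG2 MEF. Sema3c reached 5.56, 14.6 and 13.9 TPM in the cerebellum, cortex and hippocampus libraries, 58.97 in glia, 3.03 in neuron, 28.8 and 31.7 in ICR and OG2 MEF and 3.47 in the library labelled R1 ESC. Sema3a, the classical collapsing factor for growth cones, differed from these in being highest in fibroblasts. Sema3a was measured at 9.15 TPM in cerebellum, 14.2 in cortex, 1.75 in hippocampus, 3.06 in glia and 4.54 in neuron, with 32.7 in ICR MEF, 25.2 in OG2 MEF and 0.12 in the library labelled R1 ESC. The hippocampus library lay under the other 2 regions for Sema3a and above them for Sema3e, the secreted ligand that binds plexin D1 without a neuropilin. Sema3e reached 8.46, 14.9 and 35.7 TPM in the cerebellum, cortex and hippocampus libraries, 5.85 in glia, 2.13 in neuron, 2.34 and 4.38 in ICR and OG2 MEF and 0.20 in the library labelled R1 ESC.

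Some semaphorins were shared by the brain regions and glia and were low in the neuron library. Sema6d was measured at 83.6 TPM in cerebellum, 37.4 in cortex, 40.2 in hippocampus, 35.3 in glia and 2.43 in neuron, with 2.43 in ICR MEF, 1.93 in OG2 MEF and 0.13 in the library labelled R1 ESC. Sema4d reached 47.5, 29.3 and 25.9 TPM in the cerebellum, cortex and hippocampus libraries, 25.7 in glia, 1.54 in neuron, 1.12 and 1.33 in ICR and OG2 MEF and 1.2 in the library labelled R1 ESC. Sema4d, a plexin B1 ligand known from oligodendrocytes and lymphocytes, was in neuron at the level of the MEF libraries. Sema5b was measured at 4.6 TPM in cerebellum, 19.5 in cortex, 16 in hippocampus, 46.6 in glia and 1.62 in neuron, with 3.14 in ICR MEF, 1.57 in OG2 MEF and 0.31 in the library labelled R1 ESC. Glia was highest for Sema5b, and also for Sema6a, a transmembrane ligand of A plexins. Sema6a reached 14.3, 16.9 and 14.3 TPM in the cerebellum, cortex and hippocampus libraries, 27.3 in glia, 9.7 in neuron, 4.59 and 4.08 in ICR and OG2 MEF and 0.81 in the library labelled R1 ESC. Sema5a was measured at 11.5 TPM in cerebellum, 11.9 in cortex, 36.3 in hippocampus, 12.2 in glia and 1.25 in neuron, with 6.49 in ICR MEF, 6.91 in OG2 MEF and 0.20 in the library labelled R1 ESC. Sema5a, a semaphorin with thrombospondin repeats, stood apart in hippocampus. Sema4b reached 8.53, 13.3 and 10.7 TPM in the cerebellum, cortex and hippocampus libraries, 16.5 in glia, 2.92 in neuron, 10.3 and 6.76 in ICR and OG2 MEF and 3.04 in the library labelled R1 ESC. Sema4c was measured at 22.9 TPM in cerebellum, 8.56 in cortex, 9.35 in hippocampus, 7.68 in glia and 3.65 in neuron, with 13.7 in ICR MEF, 9 in OG2 MEF and 0.20 in the library labelled R1 ESC. Glia was highest for Sema4b and cerebellum for Sema4c.

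Plexins are the receptors of semaphorins, and all 9 were at 10 TPM or more in each brain region. Plxnb1 reached 36.4, 34.4 and 45.8 TPM in the cerebellum, cortex and hippocampus libraries, 81.3 in glia, 2.87 in neuron, 6.19 and 5.95 in ICR and OG2 MEF and 2.01 in the library labelled R1 ESC. Plxnb1, the receptor of Sema4d, was highest in glia and under 7 TPM in neuron, MEF and the library labelled R1 ESC. Plxnb3 was measured at 16.6 TPM in cerebellum, 14.3 in cortex, 15.2 in hippocampus, 0.89 in glia and 0.15 in neuron, with 0.07 in ICR MEF, 0 in OG2 MEF and 0 in the library labelled R1 ESC. Plxnb3, a plexin known from oligodendrocytes, was at 14.3 to 16.6 TPM in the regions and under 1 TPM in the other 5 libraries. The summed oligodendrocyte markers given above were likewise high in the regions alone, and their part in this difference was not tested. Plxna4 reached 22.7, 27.7 and 49.8 TPM in the cerebellum, cortex and hippocampus libraries, 2.72 in glia, 12.3 in neuron, 2.13 and 0.90 in ICR and OG2 MEF and 0.11 in the library labelled R1 ESC. Plxna4, a receptor for secreted semaphorins, was lower in glia than in neuron, and Plxna1 ran the other way. Plxna1 was measured at 32.3 TPM in cerebellum, 30.8 in cortex, 57.5 in hippocampus, 62.4 in glia and 9.05 in neuron, with 74.8 in ICR MEF, 67.02 in OG2 MEF and 2.19 in the library labelled R1 ESC. Plxna2 reached 23.3, 47.1 and 36.8 TPM in the cerebellum, cortex and hippocampus libraries, 19.1 in glia, 10.8 in neuron, 13.4 and 10.5 in ICR and OG2 MEF and 0.53 in the library labelled R1 ESC. Plxna3 was measured at 63.4 TPM in cerebellum, 21.3 in cortex, 22.1 in hippocampus, 12.9 in glia and 10.3 in neuron, with 9.29 in ICR MEF, 7.78 in OG2 MEF and 0.77 in the library labelled R1 ESC. Plxna3 was highest in cerebellum, where it stood near 3 times its level in the other regions. Plxnc1 reached 15.9, 36.2 and 28.5 TPM in the cerebellum, cortex and hippocampus libraries, 5.04 in glia, 14.6 in neuron, 4.6 and 2.49 in ICR and OG2 MEF and 0.15 in the library labelled R1 ESC. Plxnc1, the receptor of Sema7a, was above 14 TPM in the regions and neuron and at 5.04 TPM or less elsewhere.

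Plxnb2 had the highest level of any member, 629 TPM in the library labelled R1 ESC, yet that value rests on its length there. Its 399 TPM in glia, at 4638 bases, also lay above the highest level of every other member, of which Epha4 in hippocampus led with 186 TPM. Plxnb2 was measured at 102 TPM in cerebellum, 42.6 in cortex, 51.5 in hippocampus, 399 in glia and 77.2 in neuron, with 225 in ICR MEF, 188 in OG2 MEF and 629 in the library labelled R1 ESC. The effective length deposited for Plxnb2 was 3749 to 4638 bases in 6 libraries but 867 in neuron and 706 in that of R1 ESC, and a shorter length raises TPM for the same count. Scaled to the library total alone (CPM, without a length term), the library labelled R1 ESC had 1.05 times the level of ICR MEF (exact 95% interval 0.984 to 1.13) and 1.19 times that of OG2 MEF (1.11 to 1.27), in place of 2.80 and 3.35 times in TPM. Glia exceeded neuron 17.2-fold (15.0 to 19.9) in CPM and 5.17-fold (4.49 to 5.96) in TPM. Effective lengths differed by over 1.5-fold between libraries for 25 of the 65 members, and Ephb6, with 418 to 3570 bases, differed most. Ephb6 was 10.04-fold (7.62 to 13.4) higher in neuron than in glia in TPM and 8.54-fold (6.48 to 11.4) in CPM. Against the forebrain tissues its lead depended on length. Neuron, hippocampus and cortex had 122, 71.7 and 47.8 TPM but 87.4, 80.0 and 72.6 CPM, at lengths of 923, 2586 and 3570 bases.

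**Figure D2:**
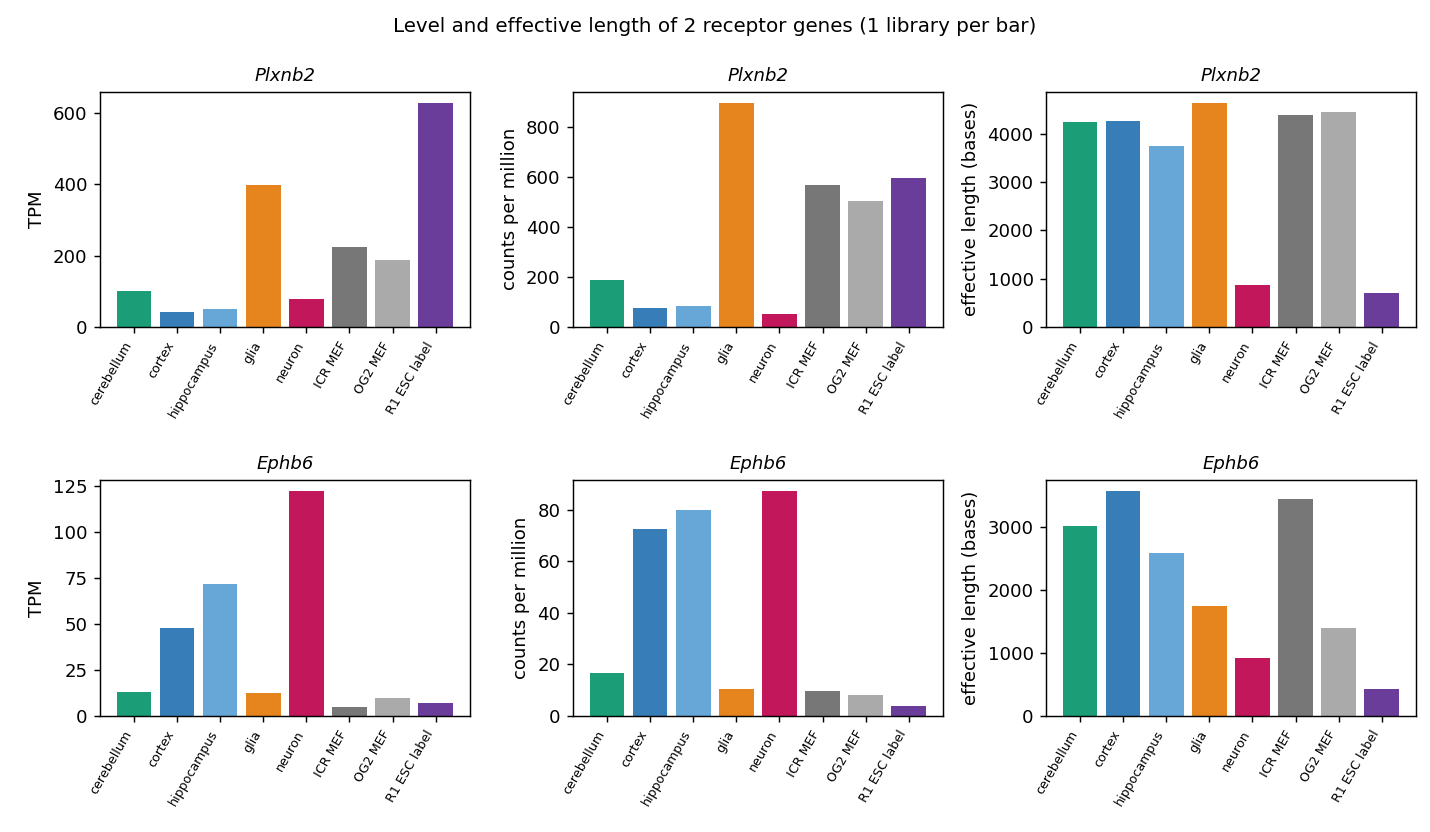
Plxnb2 (top) and Ephb6 (bottom) in each library as TPM, as CPM and by effective length in bases, 1 library per bar. The tall Plxnb2 bar of the library labelled R1 ESC in TPM (629) comes level with the MEF bars in CPM, and its length bar and that of neuron are the shortest. Ephb6 is highest in neuron on both scales, in CPM with 87.4 against 80.0 in hippocampus.

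Ephrins divided by paralogue. Efna3 and Efna4 are neighbours on chromosome 3 (Efna3 at chr3:89313899-89322965 and Efna4 at chr3:89333390-89338028, mm10, both on the minus strand), with GENCODE starts 15063 bases apart. Efna3 reached 13.02, 45.2 and 56.9 TPM in the cerebellum, cortex and hippocampus libraries, 8.91 in glia, 32.9 in neuron, 4.1 and 3.94 in ICR and OG2 MEF and 8.75 in the library labelled R1 ESC. Efna4 was measured at 0.87 TPM in cerebellum, 0.92 in cortex, 2.22 in hippocampus, 17.8 in glia and 2.48 in neuron, with 17.7 in ICR MEF, 14.5 in OG2 MEF and 24.1 in the library labelled R1 ESC. Within each brain region and in neuron Efna3 exceeded Efna4, by 13.3-fold (7.28 to 27.0) in neuron and 49.1-fold (16.6 to 239.9) in cortex. In glia the ratio of Efna3 to Efna4 was 0.50 (0.33 to 0.75), in ICR MEF 0.23 (0.14 to 0.38) and in OG2 MEF 0.27 (0.17 to 0.43). The pair was chosen after its values were seen, and the ratios rest on as few as 3 counts of Efna4 in cerebellum and cortex. The 300 bases from 250 before to 50 after the RefSeq starts (GRCm38.p6, minus strand) are printed to set these neighbours side by side. Each GC box (GGGCGG or its reverse complement CCGCCC) is in capitals. The RefSeq start of Efna3 is not its GENCODE start.
Efna3, chr3:89322890-89323189: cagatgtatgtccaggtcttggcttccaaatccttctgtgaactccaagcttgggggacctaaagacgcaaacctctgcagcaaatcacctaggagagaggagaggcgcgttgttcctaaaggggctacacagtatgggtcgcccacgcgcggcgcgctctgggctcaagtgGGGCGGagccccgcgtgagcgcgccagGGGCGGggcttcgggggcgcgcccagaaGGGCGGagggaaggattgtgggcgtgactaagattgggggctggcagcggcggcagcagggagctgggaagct
Efna4, chr3:89337979-89338278: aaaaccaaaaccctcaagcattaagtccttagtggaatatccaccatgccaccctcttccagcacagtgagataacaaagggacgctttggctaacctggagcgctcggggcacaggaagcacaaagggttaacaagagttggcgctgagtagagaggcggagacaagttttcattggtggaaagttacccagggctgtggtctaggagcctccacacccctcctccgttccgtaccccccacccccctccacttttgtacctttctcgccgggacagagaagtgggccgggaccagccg
The Efna3 window held 3 GC boxes and 22 CG pairs, and the Efna4 window 0 and 11.

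B ephrins showed the same kind of exchange. Efnb3 reached 51.7, 103 and 92.5 TPM in the cerebellum, cortex and hippocampus libraries, 1.3 in glia, 91.9 in neuron, 0.84 and 0.61 in ICR and OG2 MEF and 0 in the library labelled R1 ESC. Efnb3, known from the midline that corticospinal axons do not cross, lay above 50 TPM in the regions and neuron and under 1.5 TPM in glia, MEF and the library labelled R1 ESC. Efnb1 was measured at 7.15 TPM in cerebellum, 12.7 in cortex, 7.36 in hippocampus, 44.6 in glia and 8.47 in neuron, with 24.8 in ICR MEF, 22.04 in OG2 MEF and 15.9 in the library labelled R1 ESC. Efnb2 reached 23.1, 44.4 and 25.9 TPM in the cerebellum, cortex and hippocampus libraries, 63 in glia, 15.9 in neuron, 29.1 and 28.7 in ICR and OG2 MEF and 1 in the library labelled R1 ESC. Efnb1 and Efnb2, which also act in skeletal patterning and in arteries, were highest in glia. Efna5 was measured at 6.4 TPM in cerebellum, 8.26 in cortex, 4.31 in hippocampus, 29.3 in glia and 1.76 in neuron, with 14.5 in ICR MEF, 12.1 in OG2 MEF and 1.07 in the library labelled R1 ESC. Efna5, a topographic cue of the retina and tectum, was likewise highest in glia and lowest in neuron and the library labelled R1 ESC.

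The 9 EphA receptors had their largest summed level in hippocampus (510.2 TPM), against 279.5 in cortex, 109.5 in glia, 98.6 in cerebellum and 79.1 in neuron. Epha4 reached 13.2, 74 and 186 TPM in the cerebellum, cortex and hippocampus libraries, 59.3 in glia, 11.2 in neuron, 4.2 and 4.35 in ICR and OG2 MEF and 0.47 in the library labelled R1 ESC. Epha4, which binds ephrins of both classes, was highest in hippocampus, and glia lay between cortex and cerebellum. Epha7 was measured at 17.9 TPM in cerebellum, 64.2 in cortex, 139 in hippocampus, 1.34 in glia and 8.51 in neuron, with 7.49 in ICR MEF, 6.64 in OG2 MEF and 1.05 in the library labelled R1 ESC. Epha5 reached 7.32, 64.2 and 80.9 TPM in the cerebellum, cortex and hippocampus libraries, 20.4 in glia, 37.4 in neuron, 0.45 and 0.29 in ICR and OG2 MEF and 0.75 in the library labelled R1 ESC. Epha5 and Epha7, receptors of forebrain maps, parted in glia, where Epha5 reached 20.4 TPM and Epha7 1.34. Epha6 was measured at 2.1 TPM in cerebellum, 28.5 in cortex, 50.7 in hippocampus, 0.53 in glia and 1.43 in neuron, with 0 in ICR MEF, 0 in OG2 MEF and 0 in the library labelled R1 ESC. Epha6 was under 3 TPM outside cortex and hippocampus. Epha10 reached 8.82, 33.1 and 39.4 TPM in the cerebellum, cortex and hippocampus libraries, 0 in glia, 12.6 in neuron, 0.08 and 0 in ICR and OG2 MEF and 0 in the library labelled R1 ESC. Epha10, a receptor whose kinase is inactive, had 0 counts in glia. Epha8 was measured at 38.4 TPM in cerebellum, 6.06 in cortex, 3.19 in hippocampus, 0 in glia and 3.98 in neuron, with 0 in ICR MEF, 0 in OG2 MEF and 0.68 in the library labelled R1 ESC. Epha8 was the EphA receptor led by cerebellum, and glia and MEF had 0 counts of it. Epha3 reached 8.42, 6.45 and 9.99 TPM in the cerebellum, cortex and hippocampus libraries, 2.71 in glia, 1.65 in neuron, 15.3 and 8.86 in ICR and OG2 MEF and 0.31 in the library labelled R1 ESC. Epha3 was highest in ICR MEF and within a 2-fold range in the regions.

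Epha2, an EphA receptor of epithelia and tumours, was low in the brain regions. Epha2 was measured at 1.51 TPM in cerebellum, 2.92 in cortex, 0.84 in hippocampus, 24.9 in glia and 2.35 in neuron, with 25.2 in ICR MEF, 30.1 in OG2 MEF and 7.49 in the library labelled R1 ESC. Ephb4 reached 3.28, 3.71 and 3.18 TPM in the cerebellum, cortex and hippocampus libraries, 17.5 in glia, 0.18 in neuron, 34.1 and 38.9 in ICR and OG2 MEF and 9.81 in the library labelled R1 ESC. Ephb4, the venous receptor of Efnb2, was also led by MEF. For both genes the MEF libraries and glia lay above the brain regions, neuron and the library labelled R1 ESC. Ephb6 was measured at 12.8 TPM in cerebellum, 47.8 in cortex, 71.7 in hippocampus, 12.1 in glia and 122 in neuron, with 4.84 in ICR MEF, 9.7 in OG2 MEF and 6.63 in the library labelled R1 ESC. Ephb6, an Eph receptor without kinase activity, led the EphB family in neuron, subject to the lengths given above. Ephb1 reached 23.6, 21.1 and 22.1 TPM in the cerebellum, cortex and hippocampus libraries, 7.16 in glia, 4 in neuron, 0 and 0.08 in ICR and OG2 MEF and 0.23 in the library labelled R1 ESC. Ephb1 was near 22 TPM in each region and at 0 to 0.23 TPM in MEF and the library labelled R1 ESC. Ephb2 was measured at 29.98 TPM in cerebellum, 5.88 in cortex, 11.3 in hippocampus, 45.2 in glia and 9.48 in neuron, with 27.8 in ICR MEF, 19.6 in OG2 MEF and 0.91 in the library labelled R1 ESC. Ephb3 reached 2.39, 9.58 and 10.7 TPM in the cerebellum, cortex and hippocampus libraries, 17.2 in glia, 3.64 in neuron, 30.5 and 19.5 in ICR and OG2 MEF and 1.27 in the library labelled R1 ESC. Ephb2 and Ephb3 were lowest in the library labelled R1 ESC, and Ephb2 in cortex stood under the other regions. The Ephb4 window is printed as that of a gene of glia and fibroblasts, and is set against Unc5a further on (GRCm38.p6, plus strand, GC boxes in capitals).
Ephb4, chr5:137349859-137350158: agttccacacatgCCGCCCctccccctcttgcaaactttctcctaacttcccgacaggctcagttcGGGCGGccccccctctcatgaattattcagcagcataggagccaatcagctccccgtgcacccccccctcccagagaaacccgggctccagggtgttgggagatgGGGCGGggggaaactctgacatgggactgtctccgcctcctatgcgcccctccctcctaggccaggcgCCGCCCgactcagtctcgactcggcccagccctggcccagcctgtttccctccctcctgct
It held 4 GC boxes and 14 CG pairs.

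Slits were divided between libraries by paralogue. Slit1 was measured at 0.76 TPM in cerebellum, 41.3 in cortex, 142 in hippocampus, 0.16 in glia and 18.3 in neuron, with 0.34 in ICR MEF, 0.23 in OG2 MEF and 0 in the library labelled R1 ESC. Slit2 reached 6.11, 23.5 and 26.8 TPM in the cerebellum, cortex and hippocampus libraries, 80.7 in glia, 2.96 in neuron, 98.9 and 68.4 in ICR and OG2 MEF and 1.49 in the library labelled R1 ESC. Slit3 was measured at 6.92 TPM in cerebellum, 25.1 in cortex, 30.9 in hippocampus, 40.1 in glia and 3.96 in neuron, with 104 in ICR MEF, 57.5 in OG2 MEF and 3.14 in the library labelled R1 ESC. Slit1 was the leading Slit in neuron, cortex and hippocampus, and Slit2 or Slit3 led in glia, MEF, cerebellum and the library labelled R1 ESC. Slit1 exceeded Slit2 6.17-fold (4.65 to 8.30) in neuron and 5.31-fold (4.58 to 6.17) in hippocampus, and the ratio was 0.12 (0.056 to 0.25) in cerebellum. In glia 2 counts of Slit1 stood against 1175 of Slit2. This pair was also chosen after its values were seen.

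Robo receptors were highest in the forebrain tissues. Robo2 reached 12.4, 63.4 and 40.8 TPM in the cerebellum, cortex and hippocampus libraries, 25.6 in glia, 12.1 in neuron, 8.83 and 1.61 in ICR and OG2 MEF and 0.76 in the library labelled R1 ESC. Robo1 was measured at 6.37 TPM in cerebellum, 19.8 in cortex, 20.1 in hippocampus, 5.64 in glia and 3.5 in neuron, with 8.9 in ICR MEF, 8.94 in OG2 MEF and 0.19 in the library labelled R1 ESC. Robo2 led the family outside MEF, and Robo1 led in OG2 MEF and was level with Robo2 in ICR MEF in TPM. In ICR MEF Robo1 had 182 counts and Robo2 67, with effective lengths of 7399 and 2746 bases. Robo3 reached 0.09, 6.72 and 14.2 TPM in the cerebellum, cortex and hippocampus libraries, 0.45 in glia, 0.63 in neuron, 0.12 and 0.15 in ICR and OG2 MEF and 0 in the library labelled R1 ESC. Robo3, the family member that lowers Slit sensitivity before midline crossing, reached 10 TPM in hippocampus only. Robo4, a receptor of vascular endothelium, stood between 2.91 and 4.22 TPM in the regions (31, 34 and 17 counts) and had 0 counts in the other 5 libraries. The summed endothelial markers were likewise highest in the 3 regions, against 7.35 TPM in glia, 2.27 in neuron and 15.5 to 20 in MEF and the library labelled R1 ESC. Single markers did not all follow, since Flt1 reached 16.3 and 11.95 TPM in ICR and OG2 MEF (16.1 in hippocampus) and Pecam1 14.6 TPM in the library labelled R1 ESC. Cldn5 and Pecam1 were at 0 in glia and both MEF libraries, and Cdh5 at 0 in neuron. The part of endothelial cells in the Robo4 levels was not tested.

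Netrins and Unc5 receptors also differed by library. Ntn4 was measured at 28.4 TPM in cerebellum, 5.53 in cortex, 4.36 in hippocampus, 145 in glia and 1.02 in neuron, with 5.82 in ICR MEF, 5.67 in OG2 MEF and 1.13 in the library labelled R1 ESC. Ntn4, a netrin of basement membranes, took 87.4% of the netrin TPM in glia. Ntn1 reached 42.4, 8.08 and 3.17 TPM in the cerebellum, cortex and hippocampus libraries, 20.95 in glia, 2.35 in neuron, 4.66 and 5 in ICR and OG2 MEF and 0.73 in the library labelled R1 ESC. Ntn1, the classical midline attractant, was highest in cerebellum. Of its Unc5 receptors, Unc5b and Unc5c were higher there than in the forebrain tissues and Unc5a and Unc5d lower. Its receptor Dcc, outside the 65 members, was also lower in cerebellum, at 0.89 TPM against 8.92 in cortex and 9.62 in hippocampus. Unc5a was measured at 31.99 TPM in cerebellum, 91.8 in cortex, 110.0 in hippocampus, 0.10 in glia and 27.4 in neuron, with 0.10 in ICR MEF, 0 in OG2 MEF and 0.09 in the library labelled R1 ESC. Unc5b reached 47.4, 12.6 and 14.8 TPM in the cerebellum, cortex and hippocampus libraries, 21.1 in glia, 3.3 in neuron, 71.99 and 56.5 in ICR and OG2 MEF and 1.03 in the library labelled R1 ESC. Unc5c was measured at 33.4 TPM in cerebellum, 16.1 in cortex, 22.6 in hippocampus, 7.62 in glia and 2.69 in neuron, with 17.9 in ICR MEF, 15.1 in OG2 MEF and 0.15 in the library labelled R1 ESC. The 4 Unc5 receptors also include Unc5d. Unc5d reached 4.81, 24.6 and 10.2 TPM in the cerebellum, cortex and hippocampus libraries, 0.16 in glia, 4.43 in neuron, 0.83 and 0.21 in ICR and OG2 MEF and 0.36 in the library labelled R1 ESC. Unc5a was the leading Unc5 receptor in cortex, hippocampus and neuron, and Unc5b in cerebellum, glia, MEF and the library labelled R1 ESC. The ratio of Unc5a to Unc5b was 8.29 (6.25 to 11.2) in neuron, 7.28 (6.13 to 8.70) in cortex and 0.68 (0.59 to 0.78) in cerebellum, a pair again chosen after its values were seen. In glia it rested on 1 count of Unc5a against 338 of Unc5b. Unc5a (ENSMUSG00000025876, chr13:54949411-55006018, mm10, plus strand) is shown by its start as a gene high in neuronal and near 0 in non-neuronal libraries.
Unc5a, chr13:54949161-54949460: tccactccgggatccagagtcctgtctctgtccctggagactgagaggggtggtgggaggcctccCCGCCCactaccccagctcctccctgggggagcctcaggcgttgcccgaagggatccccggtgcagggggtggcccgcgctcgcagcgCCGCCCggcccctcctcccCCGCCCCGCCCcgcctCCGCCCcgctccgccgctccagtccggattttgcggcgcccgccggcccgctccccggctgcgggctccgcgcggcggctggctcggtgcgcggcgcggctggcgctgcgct
It held 5 GC boxes and 37 CG pairs.

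Windows of this kind were at hand for 56 members (72 windows). GGGCGG or CCGCCC was in 69.4% of them and in 35.7% of the 32851 windows of all genes, and their median was 19.5 CG pairs against 7 for all. TATAAA or its reverse complement TTTATA was in 2 member windows (Efnb2 and Slit2, 2.78%) and in 13.6% of all. Of the parts of the RE1 element, which binds the repressor of neuronal genes REST, TCAGCACC or GGTGCTGA was in 3 member windows (Efna1, Efnb1 and Sema3c; 4.17% against 1.65% of all) and GGACAGCG or CGCTGTCC in 3 (Epha3, Sema3d and Sema4c; 4.17% against 1.26%). Both strands were searched, and GC boxes may overlap each other, as in the Unc5a window. A match is a description of the letters.

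**Figure D3:**
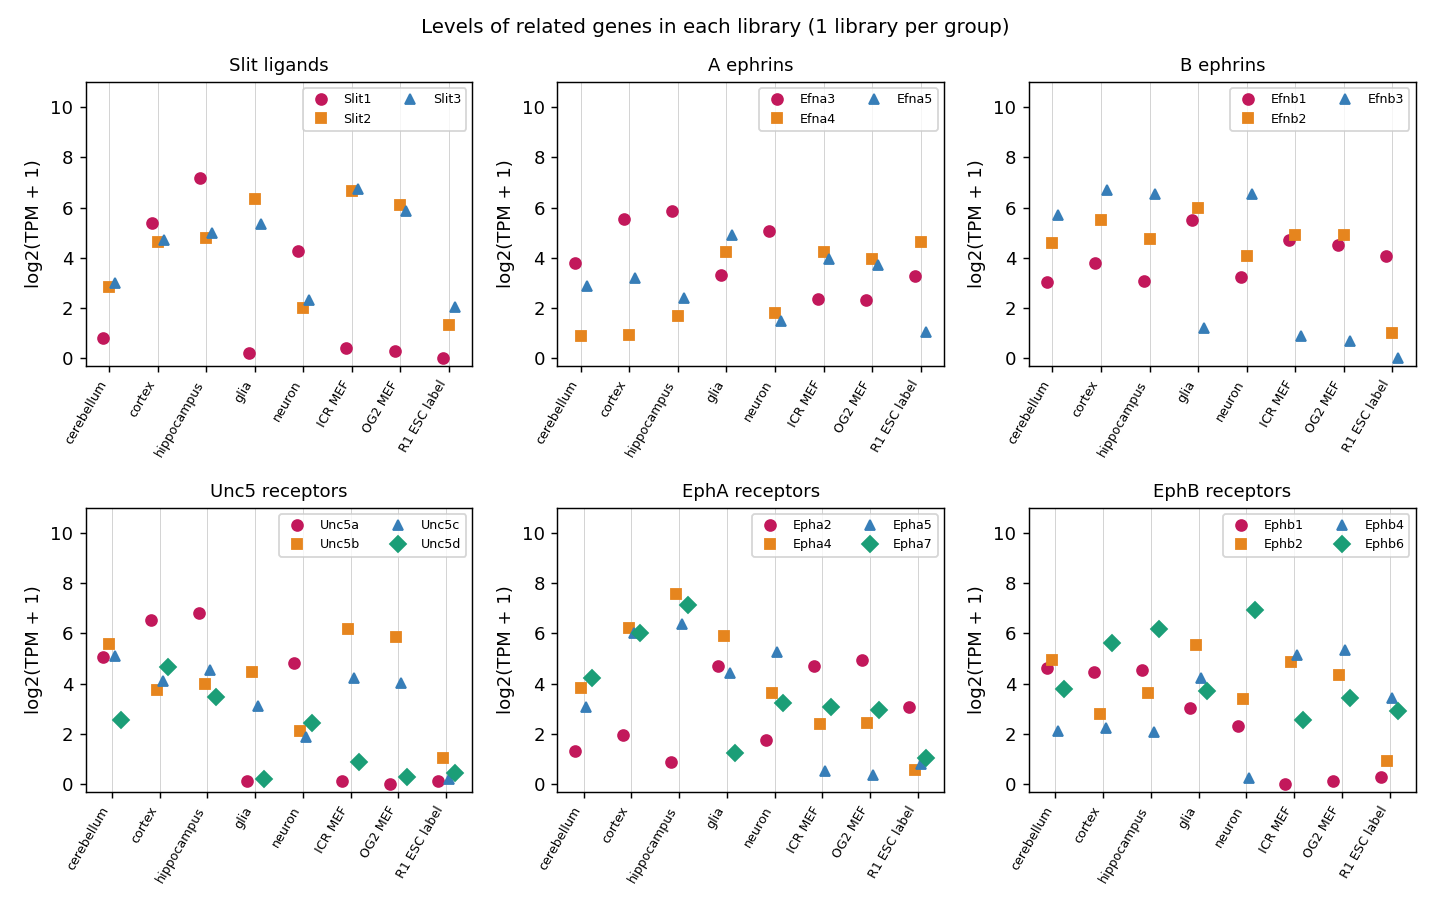
Level of related genes as log2(TPM + 1), in 6 families, with 1 point per gene and library. Slit1, Efna3, Efnb3 and Unc5a lead their families in neuron (18.3, 32.9, 91.9 and 27.4 TPM), while Slit2, Efna5, Efnb2 and Unc5b lead in glia (80.7, 29.3, 63.0 and 21.1 TPM).

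A call of higher or lower asked for 10 TPM or more throughout one side, and for a gap of at least 4-fold on TPM with 1 added between its lowest library and the other side's highest. Folds are TPM ratios between those nearest libraries with exact (Clopper-Pearson) 95% intervals of the rounded counts, which cover counting error only. The share of all genes that met the same rule, among genes at 10 TPM in at least 1 library compared, is given for each comparison. It was not computed with a library left out, which loosens the rule for every gene. Over the 8 comparisons 50 of the 65 members were called at least once and 15 in none. The matching count of all genes was not computed, so these numbers have no background.

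Neuron differed from glia in members of every family but the Robos: 10 members were higher in neuron and 23 lower, of 45 at 10 TPM in either. Of all genes 10.4% were higher and 30.5% lower, so both shares of members lay above the background. The higher ligands were Efnb3 (70.7-fold, 39.3 to 142), Slit1 (114-fold, 31.3 to 947) and the semaphorins Sema4a, Sema4f, Sema4g, Sema6b and Sema6c. The higher receptors were Unc5a (274-fold, 48.8 to 10845), Epha10 (154 counts against 0, at least 29.1-fold with the 0 set to 3 counts and 23.4-fold by the lower limit of the exact interval) and Ephb6. Lower in neuron were 8 semaphorins, led by Sema3b (266-fold, 73.1 to 2200.1) and Sema5b (28.8-fold, 18.2 to 48.2), the plexins Plxna1, Plxnb1 (28.3-fold, 21.9 to 37.2) and Plxnb2, and the netrins Ntn4 (142-fold, 79.3 to 286) and Ntn1. So were Slit2 (27.3-fold, 20.97 to 36.02), Slit3, Efna4, Efna5, Efnb1, Epha2, Epha4, Ephb2, Ephb4 (97.3-fold, 26.6 to 809) and Unc5b. The summed microglia, oligodendrocyte precursor and fibroblast markers were also higher in glia (fibroblast 198 TPM against 16.6 in neuron). Of the fibroblast list the collagens Col1a1, Col1a2 and Col3a1 stood at 59.2, 111 and 20.5 TPM in glia, and Lum and Postn at 0.94 and 2.97. Dcn was lower in glia than in neuron, at 2.92 against 12.7 TPM. The part of these cell types was not tested. Robo1 and Robo2 did not meet the rule, at 3.50 and 12.1 TPM in neuron and 5.64 and 25.6 TPM in glia.

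The balance of the 2 directions moved with the scaling. The median log2 difference was -0.95 over all genes at 10 TPM in either library, -2.14 over the 45 members at that level and -0.90 over all 65. With trimmed-mean (TMM) factors of the TPM the median of all genes at 10 TPM was -0.16. Then 14 members were higher and 13 lower, beside 1920 and 2050 of all genes. With CPM that median was -0.31, with 16 members higher and 17 lower beside 1699 and 2616 of all genes. With the trend of level with transcript length removed it was -0.15, with 17 and 11 members beside 1615 and 1845 of all genes, where TPM as deposited gave 1163 and 3412. The members are long (median effective length 3856 bases in this comparison against 2363 for all genes), and the mean length behind a count was 2488 bases in neuron and 3409 in glia. All 10 higher members remained higher with CPM and with the length trend removed, and 11 of the 23 lower ones remained lower in the latter. Sema3b, Sema3c, Sema3f, Sema4d, Sema5b, Plxnb1, Efna5, Ephb4, Slit2 and Ntn4 were lower under every alternative tried.

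**Figure D4:**
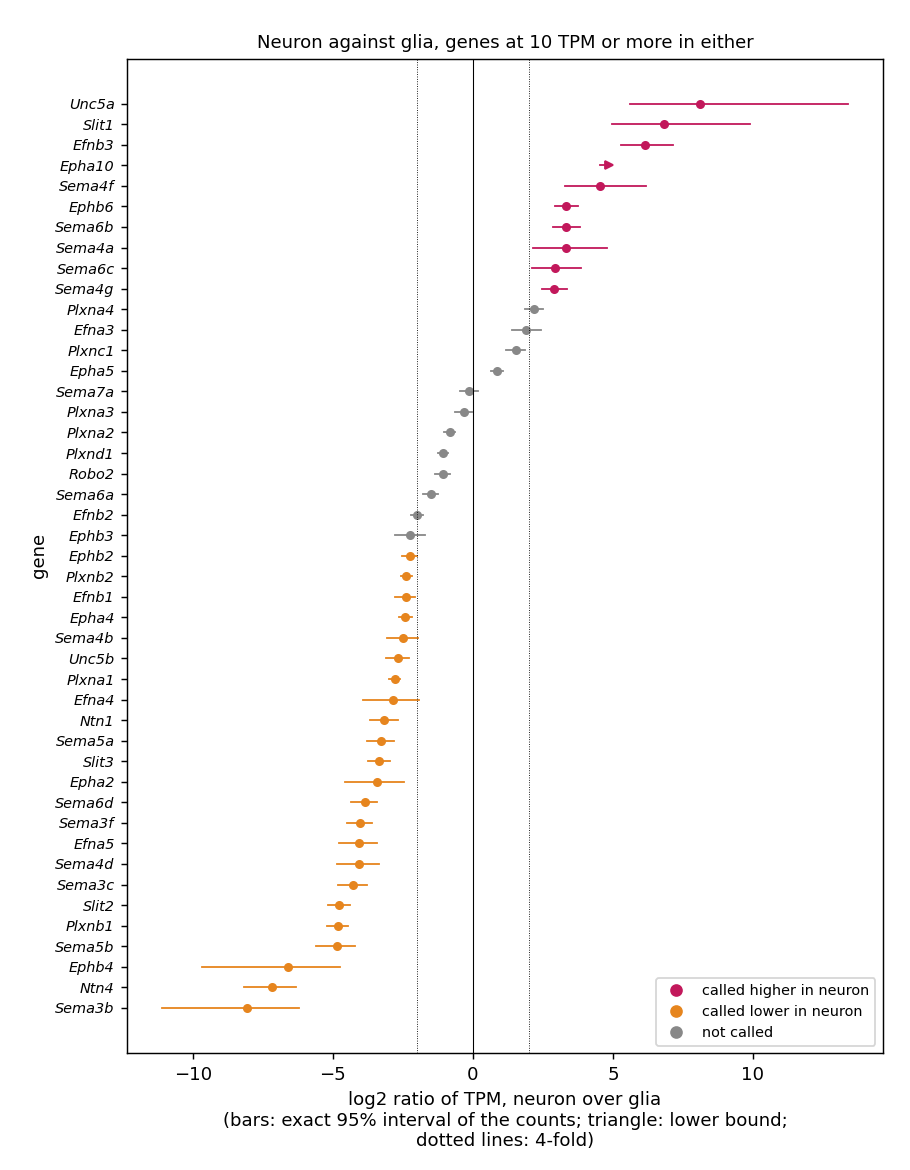
log2 ratio of TPM, neuron over glia, for the 45 genes at 10 TPM or more in either library; bars are exact 95% intervals of the counts and cover counting error only, the triangle is a lower bound, and dotted lines mark 4-fold. Unc5a, Slit1 and Efnb3 are at the top, Sema3b, Ntn4 and Ephb4 at the bottom, and 23 genes lie on the glia side against 10 on the neuron side past the rule.

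The brain regions exceeded both MEF libraries for 13 members and lay under them for 3, against 14.5% higher and 5.68% lower among all genes and 58 members at 10 TPM in a library compared. Higher were 7 semaphorins, among them Sema4a (66.7-fold, 17.98 to 559), Sema7a (57.3-fold, 33.1 to 109) and Sema6b (46.1-fold, 23.1 to 108), together with Sema4d, Sema4f, Sema4g and Sema6d. The other higher members were Efnb3 (61.6-fold, 29.6 to 154), Ephb1, Unc5a, Plxna4 (10.6-fold, 8.38 to 13.7), Plxnb1 and Plxnb3. Lower were Epha2 (8.63-fold, 4.85 to 16.9), Ephb4 (9.2-fold, 6.5 to 13.4) and Efna4 (6.52-fold, 2.66 to 20.7). Without cerebellum 25 members were higher, the added ones being Sema5b, Plxnc1, Efna3, Epha4, Epha5, Epha6, Epha7, Epha10, Ephb6, Slit1, Robo2 and Unc5d. The share of all genes without cerebellum was not computed, so the rise cannot be set against a background. The median log2 difference was 1.85 over the 58 members at 10 TPM (1.60 over all 65) against 0.75 over all genes at that level. With the length trend removed 8 members were higher and 6 lower, beside 1150 and 1056 of all genes (1824 and 716 in TPM as deposited). The medians were then 0.58 over all 65 members, including those under 10 TPM, and 0.07 over all genes at 10 TPM. With TMM factors of the TPM 9 were higher and 3 lower, beside 1211 and 1065 of all genes, and the median of all genes at 10 TPM was 0.12. No Slit, Robo or netrin met the rule.

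Cerebellum had 3 members above and 4 below both cortex and hippocampus, of 52 at 10 TPM, where 2.25% of all genes were higher and 3.01% lower. Higher were Epha8 (6.34-fold, 4.85 to 8.4) and the netrins Ntn1 (5.25-fold, 4.25 to 6.55) and Ntn4 (5.14-fold, 3.71 to 7.26). Lower were Slit1 (54.3-fold, 29.3 to 114), Epha6 (13.5-fold, 8.47 to 22.9), Epha5 (8.76-fold, 6.95 to 11.2) and Epha4 (5.61-fold, 4.8 to 6.59). Whatever the size, cerebellum lay above both other regions for 20 members and below both for 36. No share of all genes was computed for these counts. Over the 52 members at 10 TPM the median log2 difference was -0.75, against 0.11 over all genes at that level. Uncalled members on the higher side included Sema4g (3.66-fold, 3.11 to 4.34) and Unc5b (3.21-fold, 2.66 to 3.9). On the lower side they included Robo3 (74.7-fold, 12.9 to 2997, on 1 count in cerebellum), Ephb3 (4.01-fold, 2.51 to 6.65), Slit2 (3.85-fold, 2.81 to 5.38) and Epha10 (3.76-fold, 2.85 to 5.03). Without cortex 10 members were lower, with Efna3, Epha7, Epha10, Ephb6, Slit3 and Robo3 added. Without hippocampus 7 were, with Plxnd1, Robo2 and Unc5d added, and in both cases 4 were higher. No share of all genes was computed for either omission. With CPM 3 were higher and 9 lower, beside 246 and 361 of all genes (264 and 353 in TPM as deposited). With 5 TPM added in place of 1 no member was higher. The 4 granule cell markers summed to 2475 TPM in cerebellum against 24.4 and 46.8 in cortex and hippocampus, and the forebrain markers to 1.51 against 169 and 145; the part of cell composition was not tested.

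Cortex and hippocampus differed in 2 members, both higher in cortex, against 0.832% of all genes higher and 0.452% lower and 48 members at 10 TPM. They were Sema3a (8.11-fold, 4.86 to 14.5) and Plxnd1 (4.23-fold, 3.58 to 5.02), the receptor of Sema3e. Plxnd1 was measured at 10.6 TPM in cerebellum, 64.4 in cortex, 15.3 in hippocampus, 33.2 in glia and 15.9 in neuron, with 13.5 in ICR MEF, 8.72 in OG2 MEF and 0.36 in the library labelled R1 ESC. Striatal markers, added after the data were seen, were also higher in cortex: the 4 genes Drd1, Drd2, Adora2a and Ppp1r1b summed to 873 TPM in cortex and 59.6 in hippocampus, none at 0 in either, and their part was not tested. Toward hippocampus no member met the rule. Ntn5, at 2.09 and 8.33 TPM, was under 10 TPM (4.12-fold, 1.57 to 12.7), and other members higher there included Slit1 (3.45-fold, 3.09 to 3.85), Sema5a (3.06-fold, 2.66 to 3.53), Epha4 (2.52-fold, 2.32 to 2.73) and Sema3e (2.4-fold, 2.02 to 2.84). No member was called with 5 TPM added, with TMM factors of the TPM or with the length trend removed, and 1 was with CPM. Of all genes 61 were higher and 32 lower with those TMM factors, 77 and 50 with the length trend removed, and 65 and 33 with CPM.

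**Figure D5:**
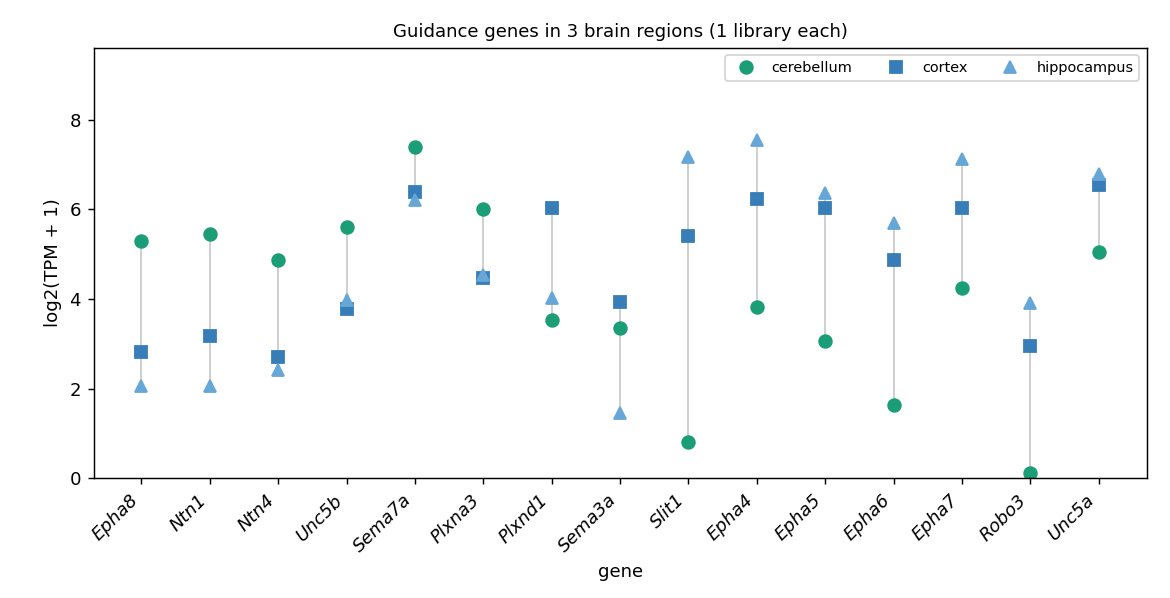
Levels of 15 members in cerebellum (circles), cortex (squares) and hippocampus (triangles), as log2(TPM + 1), 1 library each; grey lines join the values of a gene. Epha8, Ntn1 and Ntn4 are highest in cerebellum, Slit1, Epha4, Epha5 and Epha6 lowest there, and Plxnd1 and Sema3a are highest in cortex.

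Glia exceeded both MEF libraries for 9 members, and 1 was lower, of 37 at 10 TPM; 10% of all genes were higher and 2.92% lower. Higher in glia were Ntn4 (24.9-fold, 17.7 to 36.4), Epha5 (45.3-fold, 17.5 to 167), Epha4 (13.6-fold, 10.9 to 17.2), Plxnb1 (13.1-fold, 10.9 to 16.1) and 5 semaphorins (Sema4d, Sema5b, Sema6a, Sema6d and Sema7a). Sema3a was lower (8.23-fold, 5.84 to 11.9). With the length trend removed 8 were higher and 3 lower, beside 677 and 426 of all genes (1070 and 311 in TPM as deposited). Without OG2 MEF 2 were lower. Fibroblast markers summed to 198 TPM in glia, none at 0, and to 7602 and 6630.1 TPM in ICR and OG2 MEF; their part was not tested.

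The library labelled R1 ESC had no member above and 13 below both MEF libraries, of 23 at 10 TPM, where 4.49% of all genes were higher and 44.6% lower. The 13 were Slit2 (45.9-fold, 30.7 to 71.99), Slit3, Unc5b (54.9-fold, 34.1 to 94.6), Unc5c, Sema3a, Sema3c, Sema3f, Plxna1 (30.6-fold, 23.5 to 40.7), Plxna2, Efna5, Efnb2, Ephb2 and Ephb3. The median log2 difference was -2.04 over all genes at 10 TPM, -3.28 over the 23 members at that level and -1.56 over all 65. TPM as deposited gave 409 higher and 4064 lower of all genes. With TMM factors of the TPM 3 members were higher and 10 lower, beside 1677 and 1721 of all genes. The medians were then -0.41 over all genes at 10 TPM and -0.65 over all 65 members. With the length trend removed 3 were higher and 3 lower, beside 1582 and 828 of all genes. The medians were then -0.14 over all genes at 10 TPM and 0.93 over all 65 members. These are unlike sets, as only 23 of the 65 were at 10 TPM. CPM gave 1 higher and 20 lower, of which 12 were among the 13, beside 886 and 3023 of all genes. Counts came from genes of 1739 bases effective length on average in that library, and of 3136 and 3021 in ICR and OG2 MEF.

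The 2 MEF libraries had no member called in either direction (0.437% of all genes were higher in ICR MEF and 0.149% lower), with 23 members at 10 TPM. Robo2 stood at 8.83 TPM in ICR and 1.61 in OG2 (5.48-fold, 3.52 to 8.74), with effective lengths of 2746 and 5728 bases. In CPM, without the length term, Robo2 stood at 13.9 and 5.55. Sema3f stood at 91.3 TPM in ICR and 31.4 in OG2 (2.91-fold, 2.51 to 3.38). Sema6c was 3.45-fold (2.02 to 5.95) lower in ICR MEF, on 27 and 34 counts and with effective lengths of 3769 and 1169 bases.

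The neuron library had no member above cortex and hippocampus and 15 below both, of 48 at 10 TPM, where 2.14% of all genes were higher and 21.4% lower. The 15 included Plxnb3 (95.3-fold, 16.9 to 3785), Epha6 (19.9-fold, 9.92 to 46.7), Sema6d (15.4-fold, 11.3 to 21.4), Sema4d (16.8-fold, 10.1 to 29.6), Plxnb1 (11.98-fold, 9.2 to 15.8), Slit2 and Slit3. The count depends on the scaling. TPM as deposited gave 243 higher and 2431 lower of all genes. TPM-based TMM factors gave 4 lower members, beside 800 higher and 821 lower of all genes. CPM gave 7 lower members, of which 6 were among the 15, beside 591 higher and 1316 lower of all genes. With the length trend removed 1 member was lower and 2 were higher, beside 599 lower and 299 higher of all genes. The median log2 difference was -1.10 over all genes at 10 TPM, -1.75 over the 48 members at that level and -1.64 over all 65. With the length trend removed it was -0.05 over all genes at 10 TPM and 0.20 over all 65 members, a set that includes members under 10 TPM. Oligodendrocyte markers summed to 34.2 TPM in neuron, none at 0, against 4468 in cortex and 5811 in hippocampus, and their part was not tested. Efnb3 stood at 91.9 TPM in neuron against 103 and 92.5, and Sema6b at 38.6 against 82.8 and 66.6. Leaving out cortex or hippocampus gave 18 or 19 lower members.

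Of 55 other guidance genes (co-receptors, further cues and intracellular effectors) 49 reached 10 TPM in neuron or glia, and 9 were higher and 13 lower in neuron, where 10.4% and 30.5% of all genes were. The higher ones included Crmp1 and L1cam, and the lower ones were led by Dock1, Nck1 and Vav3. In brain regions against MEF 15 of 53 were higher (14.5% of all genes), among them Nrcam and Cntn2, and 2 lower (Dpysl3 and Rras; 5.68% of all genes). Cerebellum had 4 of 51 lower, led by Ngef, Chn1 and Ntng2, and none higher (3.01% and 2.25% of all genes). None of 49 was called between cortex and hippocampus and none of 32 between the MEF libraries. Glia against MEF gave 7 higher and 2 lower of 41 (10% and 2.92% of all genes). The library labelled R1 ESC against MEF gave 0 and 19 of 33 (4.49% and 44.6%), and neuron against cortex and hippocampus 2 and 10 of 50 (2.14% and 21.4%). The semaphorin co-receptor Nrp1 stood at 4.79 TPM in cerebellum, 13.6 in cortex, 49.9 in hippocampus, 37.5 in glia, 16.3 in neuron and 59.8 and 70.1 in ICR and OG2 MEF.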

How the data were processed

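Total RNA from 8 mouse libraries, 1 per group, was sequenced (Trizol, 1 ug, Illumina TruSeq, per the labels' protocols). Per the submitters' processing notes, Bowtie and RSEM were used with mm10. For versions, annotation release and strand setting: not given in the sources used here. Per the file headers the authors deposited expected counts (estimated reads per gene, not always whole: 92.9% of member values were, within 0.01), TPM (scaled to one fixed sum in each library) and effective length in bases. RSEM divides shared reads among similar paralogues, so small values of close family members are uncertain.

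Genes were matched by symbol, which 29202 of 29713 genes have; Ntn3 was not analysed here. Members and lists were chosen with earlier results of these data known, and paralogue pairs and the striatal list after values were seen. Every member at 10 TPM or more in a library is named. Coordinates are GENCODE M21 (GRCm38) and start windows RefSeq GRCm38.p6.

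Values were compared as log2(TPM + 1), which understates folds of low genes. A call needed at least 10 TPM in every library of the higher side and 4-fold between nearest libraries. Intervals are exact at 95% from expected counts rounded to whole numbers. A side at 0 was set to 3 counts. Alternatives were 0.1 or 5 TPM added, a floor of 1 TPM or none, TMM factors (edgeR 4.0.16) of counts or TPM, CPM, 2-fold, each library left out and, chosen after seeing the data, removal of the length trend in 20 bins. The call rule was tested on counts simulated from the profile of a library of each comparison, with counting error only (Python 3.11.15, scipy 1.17.1). Such counts hold no variation between libraries and no shift of length, so they cannot show how the calls fare under either.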

Additional observations from a re-analysis of the deposited data

How the results depend on the processing

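Of 96 calls of members over the 8 comparisons 40 held under every alternative. The counts that follow are of members alone. Counts of all genes were not computed for other amounts of TPM added, other floors, the 2-fold limit or a library left out. Adding 5 TPM left 6 higher and 15 lower in neuron against glia, 0 higher in cerebellum, 0 in cortex against hippocampus, 8 higher and 1 lower in brain regions against MEF, 0 lower in glia against MEF, 8 lower in the library labelled R1 ESC and 6 lower in neuron against cortex and hippocampus. A floor of 1 TPM, or none, gave 2 lower in glia against MEF and 21 lower in R1 ESC against MEF. TMM factors of the counts gave 1 higher in R1 ESC against MEF. TMM factors of the TPM gave 13 lower in neuron against glia, 0 in cortex against hippocampus, 3 higher in R1 ESC against MEF and 4 lower in neuron against cortex and hippocampus. CPM gave 16 higher in neuron against glia, 9 lower in cerebellum, 1 higher in cortex against hippocampus, 5 lower in brain regions against MEF, 2 lower in glia against MEF, 1 higher and 20 lower in R1 ESC against MEF and 7 lower in neuron against cortex and hippocampus. A 2-fold limit gave 10 higher and 16 lower in cerebellum, 4 and 5 in cortex against hippocampus, 20 higher in brain regions against MEF, 14 and 2 in glia against MEF, 1 higher in R1 ESC against MEF, 1 higher in ICR MEF against OG2 MEF and 27 lower in neuron against cortex and hippocampus. Removing the length trend gave 17 higher and 11 lower in neuron against glia, 0 in cortex against hippocampus, 8 and 6 in brain regions against MEF, 3 lower in glia against MEF, 3 and 3 in R1 ESC against MEF and 2 and 1 in neuron against cortex and hippocampus, where Robo1 alone changed direction, to 0.063 on the log2 scale. The cause was not tested.

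Leaving out 1 library gave 4 higher and 7 to 10 lower in cerebellum, 13 to 25 higher and 3 to 4 lower in brain regions against MEF, 9 to 11 higher and 1 to 2 lower in glia against MEF, 0 higher and 13 to 16 lower in R1 ESC against MEF, and 0 higher and 18 to 19 lower in neuron against cortex and hippocampus. No paired analysis was possible because each group has 1 library.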
